A study of Gallus gallus with 20 samples.

Results

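Myelin and oligodendrocyte genes were followed across the hypothalamus and pituitary of Korat chickens, a slow-growing meat-type line, that differed in residual feed intake (RFI). The genes were chosen by name, as MBP, CNP, SOX10, HAPLN2, MAG, UGT8, CLDN11 and MYRF. Of these 8 names, 6 matched a gene name among the 28021 genes of the deposited table, and MAG and CLDN11 were not matched and are not analysed here. The 6 genes passed the low-count filter in every comparison.

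RFI measures feed efficiency: a bird of low RFI eats less than its body weight and growth would predict, and a bird of high RFI eats more. From 200 males in individual cages with free access to feed, birds at the extremes of RFI were picked at 10 weeks of age. Bulk RNA sequencing covered 4 groups of 5 libraries, namely hypothalamus of low RFI birds, hypothalamus of high RFI birds, pituitary of low RFI birds and pituitary of high RFI birds, with no drug, diet or genetic change in any of them. By the design text the libraries come from pools of birds, and the p-values measure the spread between libraries. The design text gives 5 hypothalamus pools from 10 birds in each RFI group. For the pituitary it gives 4 pools of 2 birds in each RFI group, while the titles give 5 libraries. Which pool each pituitary library came from is therefore not known, nor whether these 5 libraries are independent.

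Oligodendrocytes wrap axons of the central nervous system in myelin, a stack of compacted membrane rich in galactolipids and a few abundant proteins. In peripheral nerve the same task falls to Schwann cells, whose compact myelin contains PMP22 and whose identity also depends on SOX10. The hypothalamus is brain tissue crossed by myelinated tracts. The pituitary joins an endocrine anterior lobe to a neural posterior lobe that receives hypothalamic axons. These roles are known mainly from mammals.

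In roles, the 6 genes cover the myelin sheath, its lipids, its contact with axons and the control of its genes. MBP, on chromosome 2 (90467903 to 90576864, plus strand), encodes myelin basic protein, which compacts the inner faces of the membrane. CNP, on chromosome 27 (7553413 to 7558599, plus strand), encodes an enzyme of the uncompacted parts of the sheath. UGT8, on chromosome 4 (56248208 to 56292940, minus strand), encodes the enzyme that makes galactosylceramide. HAPLN2, on chromosome 25 (2672117 to 2674826, minus strand), encodes a link protein of the matrix at nodes of Ranvier. SOX10, on chromosome 1 (51055215 to 51064410, plus strand), and MYRF, on chromosome 5 (446077 to 478889, plus strand), encode transcription factors that switch on myelin genes. Positions are those of the whole protein-coding gene in the deposited table, on the GRCg6a build. CNP overlaps DNAJC7 on the other strand, and whether counting used strand is not known here, so reads of these genes may be mixed in the CNP values. A row with no symbol, ENSGALG00000009355 on chromosome 9 (19935349 to 19943732), is described in the table as claudin 11. It was not matched by the rule and is given beside the 6 genes as the claudin-11 row.

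Depth ran from 11418600 to 12647034 counts in hypothalamus libraries and from 10262777 to 11960994 in pituitary libraries. Mitochondrial genes took 13.9 to 20.1% of all counts of hypothalamus libraries, against 5.18 to 11% for pituitary libraries. The summed level of 11 anterior pituitary hormone and lineage genes was 14.3 to 67.9 CPM in hypothalamus libraries and 21065 to 103189 CPM in pituitary libraries, so by these genes every library matched its tissue label. These sums do not show whether a library also held other tissue. Levels in CPM are read counts set against the library size, which was scaled by TMM over all 20 libraries. Libraries are named by tissue, RFI group and number. Hypothalamus low RFI library 2 stood apart by the choroid plexus gene TTR, at 25619 CPM against 9.17 to 80.4 CPM in the other 9 hypothalamus libraries. A list of choroid plexus and pineal genes that includes TTR summed to 27912 CPM there, against 25.3 to 121 CPM in the other 9. Pituitary low RFI library 1 had 715 CPM of TTR, 37.8 CPM of GBX2 and 203 CPM of GAD1, and pituitary high RFI library 4 had 66.9 CPM of EN2 and 123 CPM of FAT2. They were also the lowest pituitary libraries for the anterior pituitary genes, at 21065 and 38162 CPM, against 50916 to 103189 CPM in the others. A list of 14 neuron genes summed to 6224 CPM in pituitary low RFI library 1, against 6702 to 9197 CPM in hypothalamus libraries. Whether these libraries held brain tissue was not tested. Pituitary low RFI library 2 had 476 CPM of the sensory neuron gene SCN11A. Results of the 6 genes that change direction without 1 of these libraries are given with and without it.

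The 6 genes were far more abundant in the hypothalamus than in the pituitary, and MBP was the most abundant of them in both. By FPKM, counts per gene length and library size as deposited, MBP averaged 5584 ± 1251 in the hypothalamus (SD, n = 10), CNP 1063 ± 242 and UGT8 301 ± 68.3. HAPLN2 followed at 73.2 ± 17.1 FPKM, SOX10 at 72.2 ± 13.9 and MYRF at 22.0 ± 8.83. HAPLN2 was above SOX10 in 6 of 10 hypothalamus libraries, so those neighbours did not differ beyond their spread. Every other neighbouring pair kept its order in 10 of 10 libraries.

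In the pituitary MBP averaged 674 ± 879 FPKM (SD, n = 10), CNP 117 ± 181 and UGT8 53.1 ± 52.4. SOX10 averaged 12.6 ± 12.04 FPKM there, HAPLN2 8.84 ± 12.1 and MYRF 4.31 ± 6.26. For 4 of the 6 genes the SD exceeded the mean, since a few pituitary libraries were high. The order of neighbours held within 10 libraries for MBP over CNP, 9 for CNP over UGT8, 10 for UGT8 over SOX10, 8 for SOX10 over HAPLN2 and 9 for HAPLN2 over MYRF.

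**Figure D1:**
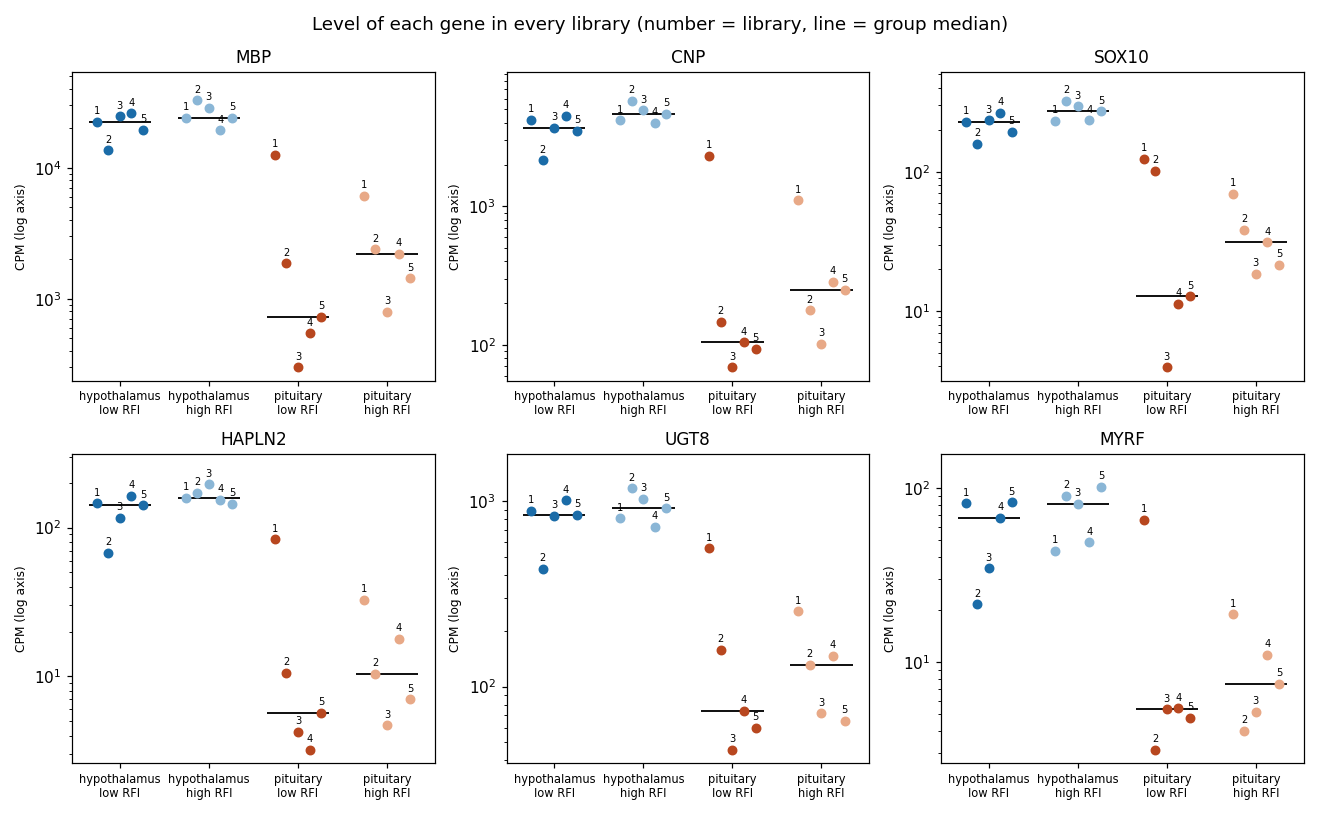
Level in CPM (log axis) of the 6 genes in every library, by group, with the library number beside each point and a line at the group median. MBP runs from 13551 to 32743 CPM in the hypothalamus and from 299 to 12506 CPM in the pituitary, where low RFI library 1 is the highest point in every panel.

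Between tissues, all 6 genes were higher in the hypothalamus. The comparison set the mean of both hypothalamus groups against the mean of both pituitary groups over 20 libraries. MBP had a log2 fold of 3.02 (SE 0.57, edgeR adjusted p = 0.000131), CNP of 3.17 (SE 0.63, edgeR adjusted p = 0.000199) and HAPLN2 of 3.03 (SE 0.53, edgeR adjusted p = 5.55e-05). The galactolipid enzyme UGT8 had a log2 fold of 2.48 (SE 0.40, edgeR adjusted p = 2.76e-05), SOX10 of 2.51 (SE 0.47, edgeR adjusted p = 0.000121) and MYRF of 2.37 (SE 0.51, edgeR adjusted p = 0.000466). The claudin-11 row had 2.25 (SE 0.31, edgeR adjusted p = 5e-06). In bulk tissue, fewer cells of a type and less RNA per cell cannot be told apart.

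The background of that comparison was high, since 70.8% of the 16747 genes tested were called, 32.5% as higher and 38.3% as lower in the hypothalamus. A count of 6 of 6 genes called is to be read against that share. A log2 fold above 2 was less common, at 4.35% of genes, and 6 of 6 reached it. The median log2 fold was 2.76 for the 6 genes and -0.07 for all genes. Without TMM the median of all genes was lower by 0.29, at -0.37, and the median of the 6 genes was 2.51. The calls then split into 3755 higher and 8794 lower in the hypothalamus, against 5447 and 6415 with TMM.

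The tissue ranges of MBP and SOX10 did not overlap, a pattern that 8.04% of genes showed in the same direction. For CNP, UGT8, HAPLN2 and MYRF, pituitary low RFI library 1 reached into the hypothalamus range. CNP was at 2320.5 CPM in that library, against 2142 CPM in the lowest hypothalamus library. UGT8 was at 557 CPM there, against a lowest hypothalamus value of 432 CPM. For CNP, UGT8 and HAPLN2 only hypothalamus low RFI library 2, which stood apart by TTR, was reached. The lowest of the other hypothalamus libraries had 3523 CPM of CNP, 730 CPM of UGT8 and 116 CPM of HAPLN2. Pituitary low RFI library 1 was below these, with 83.3 CPM of HAPLN2. For MYRF the overlap remained, at 65.4 CPM in pituitary low RFI library 1 against 34.5 CPM in the lowest of the other hypothalamus libraries.

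The ratio of mean CPM, hypothalamus over pituitary, ran from 5.001 for MYRF to 8.93 for CNP. It depended on 3 pituitary libraries, low RFI library 1 and high RFI libraries 1 and 4, the highest in CNP. Without them it was 30.9 for CNP, 20.4 for MBP, 12.9 for MYRF and 8.2 for SOX10, the lowest of the 6. All 6 genes were called without these libraries too, with a median log2 fold of 4.01. These libraries were picked for their high CNP, so leaving them out was bound to widen the gap of CNP. It is therefore no test of the tissue difference.

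The other mature oligodendrocyte and myelin genes followed the same course, with 21 called higher and 3 called lower in the hypothalamus among 27 tested. PLLP, a proteolipid of the myelin membrane, had a log2 fold of 3.22 (SE 0.59, edgeR adjusted p = 9.75e-05). The 3 lower genes were SLC44A1 at -0.83, EVI2A at -1.04 and MAL at -1.60, named after their values were seen. Of 10 lineage transcription factors, 8 were called higher and 2 lower, and OLIG2, which specifies the lineage, had a log2 fold of 3.12 (SE 0.67, edgeR adjusted p = 0.000437). Among 12 precursor genes 8 were called higher and 3 lower, and the precursor receptor PDGFRA stood at 0.86 (SE 0.20, edgeR adjusted p = 0.000744). Of all genes tested, 32.5% were called higher and 38.3% lower. The direction was not particular to oligodendrocyte genes. Neuron genes had 13 of 14 called higher (median log2 fold 1.74) and astrocyte genes 9 of 9 (median 1.82), with 0 lower in both lists. Endothelium genes had 4 called higher and 5 lower of 9, and fibroblast and meninges genes 1 higher and 8 lower of 11. Without the 3 pituitary libraries highest in CNP, 22 mature genes were called higher and 3 lower, and the counts for transcription factors and precursor genes were the same as with all libraries. Those libraries were picked as high in a myelin gene, so these counts are no test of the tissue difference either.

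Schwann cell genes were split, and several went the other way. PMP22 was lower in the hypothalamus with a log2 fold of -3.68 (SE 0.42, edgeR adjusted p = 5.7e-07), and the neuregulin receptor ERBB3 with -3.89 (SE 0.38, edgeR adjusted p = 9.32e-08). PMP22 ranged from 17.3 to 42.4 CPM in hypothalamus libraries and from 82.5 to 900.2 CPM in pituitary libraries. Of 11 tested Schwann cell and peripheral glia genes, 6 were called lower and 3 higher in the hypothalamus, with a median log2 fold of -0.61. Among all genes tested, 38.3% were called lower and 32.5% higher, so the count alone sets the list little apart. The summed level of the list ran from 404 to 686 CPM in hypothalamus libraries and from 295 to 2021 CPM in pituitary libraries, so the tissues overlapped. Genes such as MBP and SOX10 are shared by both kinds of myelinating cell, so PMP22 is given beside the pituitary values below. Which cells gave the PMP22 reads was not tested.

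Pituitary libraries differed widely within each RFI group. MBP was at 12506, 1864, 299, 545 and 725 CPM in low RFI libraries 1 to 5, against 6113, 2383, 797, 2215 and 1437 CPM in high RFI libraries 1 to 5. CNP was at 2320.5, 146, 68.7, 104 and 93.3 CPM in the low RFI libraries, against 1107, 177, 102, 284 and 249.9 CPM in the high RFI libraries. In both groups library 1 was the highest and the ranges overlapped widely. UGT8 was at 557, 158, 45.5, 74.0 and 60.2 CPM in low RFI pituitaries, against 255, 131, 71.8, 146 and 65.2 CPM in high RFI pituitaries. HAPLN2 was at 83.3, 10.6, 4.25, 3.22 and 5.70 CPM in low RFI pituitaries, against 32.8, 10.4, 4.70, 17.8 and 7.02 CPM in high RFI pituitaries. Library 1 again led both groups for these genes of myelin lipid and of the node.

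The transcription factors divided. SOX10 was at 124, 101, 3.93, 11.3 and 12.7 CPM in low RFI pituitaries, against 69.1, 38.4, 18.6, 31.2 and 21.5 CPM in high RFI pituitaries. MYRF was at 65.4, 3.12, 5.35, 5.42 and 4.78 CPM in low RFI pituitaries, against 18.7, 4.02, 5.17, 10.99 and 7.49 CPM in high RFI pituitaries. Low RFI library 2 was thus second highest for SOX10 and the lowest of all 10 for MYRF, a factor of oligodendrocytes. That library had 866 CPM of PMP22 and 2.08 CPM of OLIG2. High RFI library 2 had 900.2 CPM of PMP22, the highest of all libraries, with 6.08 CPM of OLIG2. Low RFI library 1 showed the reverse, with 82.5 CPM of PMP22 and 123 CPM of OLIG2. In low RFI library 2, high RFI library 2 and low RFI library 1, the Schwann cell list summed to 2003, 2021 and 502 CPM. That list includes PMP22. The fibroblast and meninges list summed to 7802, 15521 and 1010 CPM in the same libraries, so PMP22 was high where both lists were high.

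Markers of other brain cells moved with the myelin genes in some of these libraries. Low RFI library 1 had 1554 CPM of the synaptic gene SNAP25 and 1180.1 CPM of the astrocyte gene GFAP, the highest of the 10 for both. High RFI library 4 had 810 CPM of SNAP25 and 595 CPM of GFAP. High RFI library 1, second for MBP, had 533 CPM of GFAP but 79.0 CPM of SNAP25, the lowest of the 10. The summed level of 14 neuron genes ran from 1016 to 6224 CPM in low RFI pituitaries and from 1042 to 3593 CPM in high RFI pituitaries. The part of these cell types in the myelin gene levels was not tested.

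**Figure D2:**
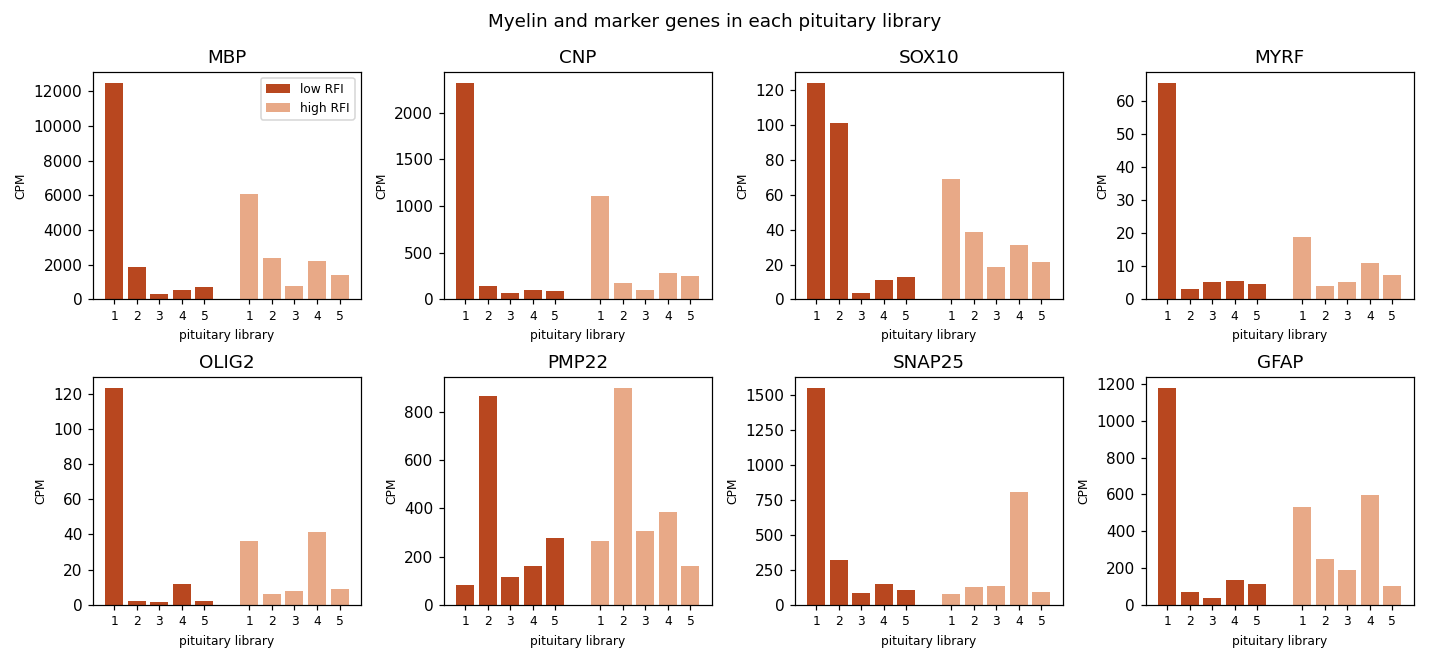
CPM of 8 genes in each pituitary library, low RFI (dark) left of high RFI (light), on linear axes from 0. MBP, CNP, MYRF and OLIG2 peak in low RFI library 1, while PMP22 peaks in low RFI library 2 and high RFI library 2, at 866 and 900.2 CPM.

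The mix of these genes also differed between tissues. Each of the other 5 genes was set against MBP in the same library, as FPKM per 1000 FPKM of MBP. UGT8 was at 46.5 to 63.0 in hypothalamus libraries (median 54.0) and at 60.7 to 222 in pituitary libraries (median 108). SOX10 was at 11.8 to 15.1 in hypothalamus libraries (median 12.7) and at 12.4 to 67.7 in pituitary libraries (median 19.3). MYRF was at 1.98 to 6.01 in hypothalamus libraries (median 3.79) and at 2.37 to 25.3 in pituitary libraries (median 7.39). Relative to MBP these genes were lower in the hypothalamus, and 9 pituitary libraries for UGT8, 8 for SOX10 and 7 for MYRF lay above the highest hypothalamus library. CNP was at 161 to 223 in hypothalamus libraries, against 80.0 to 246 in pituitary libraries. HAPLN2 was at 9.93 to 16.8 in hypothalamus libraries, against 9.23 to 29.9 in pituitary libraries. For CNP and HAPLN2 the tissue ranges overlapped widely.

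Differences of mean log2 ratio, hypothalamus minus pituitary, were tested by 2-sided permutation over libraries with 100000 resamples, with p adjusted over the 5 ratios. They were -0.98 for UGT8 (permutation adjusted p = 0.0003), -0.72 for SOX10 (permutation adjusted p = 0.0013) and -0.94 for MYRF (permutation adjusted p = 0.0387). The ratios of CNP (0.32, permutation adjusted p = 0.11) and HAPLN2 (-0.08, permutation adjusted p = 0.696) did not pass the threshold. Without low RFI library 1 and high RFI libraries 1 and 4 of the pituitary, the exact permutation test gave an adjusted p of 0.000257 for UGT8 and SOX10 and of 0.0693 for MYRF, which then did not pass. Low RFI library 1 and high RFI library 1 were the pituitary libraries highest in MBP. They held the lowest pituitary ratios of UGT8 (64.8 and 60.7) and SOX10 (12.4 and 14.1). Leaving them out was bound to widen those gaps, so the exact test adds no support for UGT8 and SOX10. The SD of the SOX10 log2 ratio was then 0.12 in hypothalamus and 0.68 in pituitary libraries, and a permutation test assumes equal spread. The denominator was chosen after values were seen and is shared by the 5 ratios, so they are not separate results. Pituitary low RFI library 2 had the highest SOX10 ratio, at 67.7, and CNP had its lowest ratios in low RFI library 2 and high RFI library 2, at 84.2 and 80.0. PMP22 per 1000 of MBP was at 1.40 to 4.88 in hypothalamus libraries, against 13.8 to 974.7 in pituitary libraries.

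**Figure D3:**
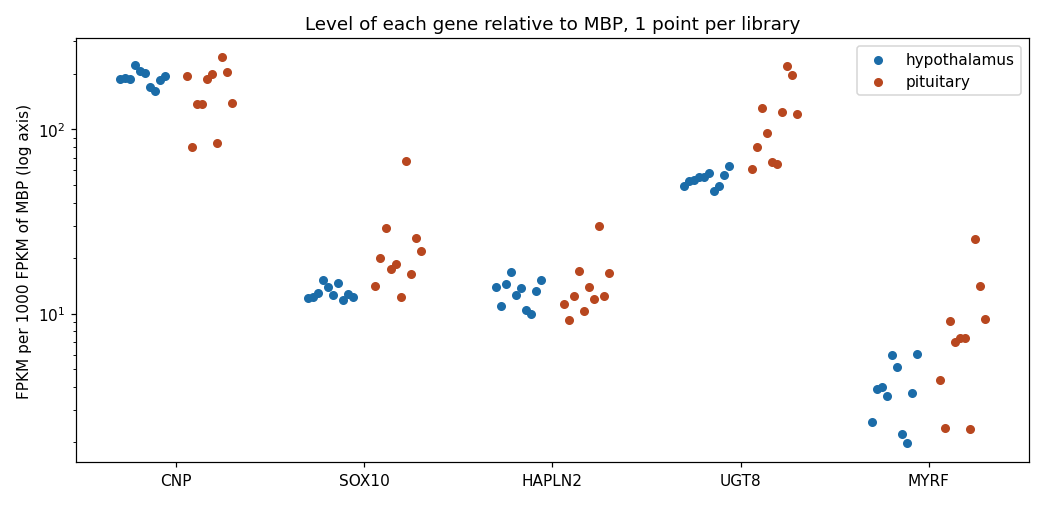
FPKM of each gene per 1000 FPKM of MBP (log axis), 1 point per library, hypothalamus left of pituitary. Hypothalamus libraries lie close together, 46.5 to 63.0 for UGT8, while pituitary libraries spread from 60.7 to 222 for UGT8.

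In the hypothalamus, all 6 genes averaged lower in low RFI than in high RFI birds, and none passed the threshold. MBP was at 22369.9, 13551, 24633, 25932 and 19487 CPM in low RFI libraries 1 to 5, against 23905, 32743, 28487, 19221 and 24124 CPM in high RFI libraries 1 to 5. CNP was at 4201, 2142, 3686, 4487 and 3523 CPM in low RFI libraries, against 4178, 5760.2, 4945, 3987 and 4652 CPM in high RFI libraries. UGT8 was at 889, 432, 835, 1009.6 and 843 CPM in low RFI libraries, against 808, 1174, 1033, 729.9 and 915 CPM in high RFI libraries. For these sheath and lipid genes low RFI library 2 was the lowest of all 10, high RFI library 2 was the highest, and the groups overlapped.

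HAPLN2 was at 146, 67.6, 116, 164 and 141 CPM in low RFI hypothalami, against 159, 171, 195, 153 and 145 CPM in high RFI hypothalami. SOX10 was at 227, 159, 234, 265 and 193 CPM in low RFI hypothalami, against 232, 322, 296, 234 and 271 CPM in high RFI hypothalami. MYRF was at 81.5, 21.4, 34.5, 67.6 and 82.8 CPM in low RFI hypothalami, against 43.6, 90.3, 80.9, 48.6 and 101 CPM in high RFI hypothalami. Low RFI library 2 was the lowest for these genes as well. MYRF varied most, 4.73 times between its lowest and highest hypothalamus library, against 2.03 times for SOX10.

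The log2 fold, low minus high RFI, was -0.28 for MBP (SE 0.18), -0.39 for CNP (SE 0.17), -0.22 for UGT8 (SE 0.20), -0.38 for HAPLN2 (SE 0.19), -0.33 for SOX10 (SE 0.13) and -0.34 for MYRF (SE 0.37). Adjusted p in edgeR's quasi-likelihood test was 0.964 to 0.976 for the 6 genes. No gene of 15179 tested passed (0%), while 728 genes (4.8%) had an unadjusted p under 0.05 and DESeq2 called 5, none of the 6. CNP (edgeR unadjusted p = 0.0446) and SOX10 (edgeR unadjusted p = 0.028) were among the 2.78% of genes with an unadjusted p under 0.05 and a lower level. A log2 fold below 0 was found for 6 of the 6 genes and for 48.2% of all genes. The median was -0.34 for the 6 genes and 0.01 for all genes. None of the 6 had groups that did not overlap, as 0.922% of all genes did. The 95% interval ran from -0.69 to 0.13 for MBP and from -0.64 to -0.02 for SOX10.

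Without low RFI library 2, 6 of 6 log2 folds stayed below 0 and 50.7% of all genes did. The median of the 6 was then -0.19, with MBP at -0.16, CNP at -0.25, SOX10 at -0.24, HAPLN2 at -0.22, UGT8 at -0.07 and MYRF at -0.14. The claudin-11 row had 479.8, 291, 505, 473 and 372 CPM in low RFI hypothalami, against 495, 665, 468, 463 and 577 CPM in high RFI hypothalami. Its log2 fold was -0.33 (SE 0.15, edgeR adjusted p = 0.964), with low RFI library 2 again the lowest.

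**Figure D4:**
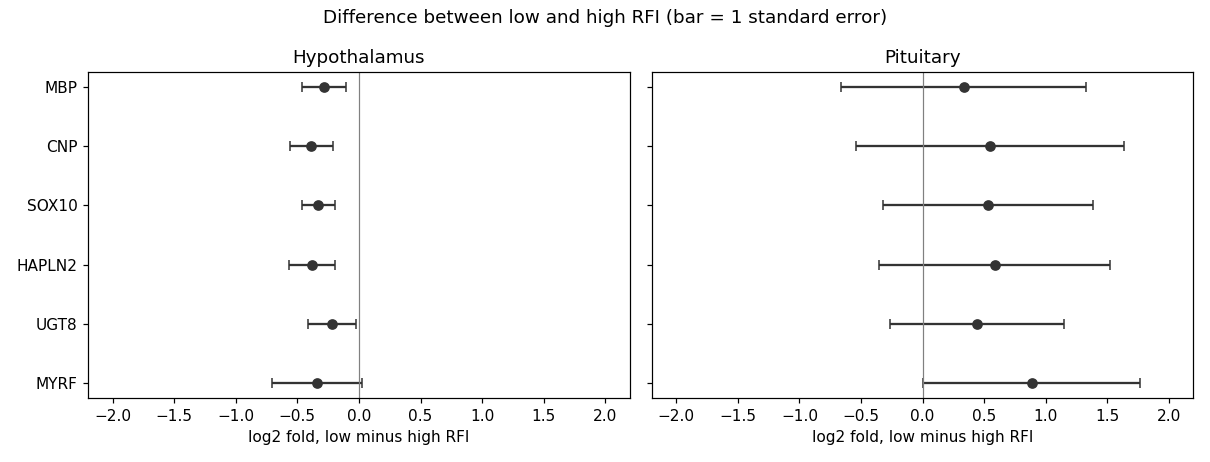
Log2 fold, low minus high RFI, of the 6 genes in the hypothalamus (left) and pituitary (right), with bars of 1 standard error. Hypothalamus folds lie between -0.39 and -0.22 and pituitary folds between 0.33 and 0.88 with standard errors of 0.71 to 1.09, and none passed the threshold.

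Other myelin genes of the hypothalamus had the same direction. Of 26 tested mature oligodendrocyte and myelin genes, 24 had a log2 fold below 0, with a median of -0.24, and 0 were called. Examples are the plasma membrane proteolipid PLLP at -0.36 (SE 0.18) and ADAMTS4, a protease of matrix proteoglycans, at -0.48 (SE 0.17). Of 10 lineage transcription factors 8 were below 0, with a median of -0.27 and 0 called, including OLIG2 at -0.33 (SE 0.13) and NKX6-2, a homeobox factor of maturing oligodendrocytes, at -0.33 (SE 0.13). Without low RFI library 2 the counts were 21 of 26 and 7 of 10, with medians of -0.14 and -0.19.

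Precursor genes did not lean the same way, with 4 of 11 below 0 and a median of 0.01. PDGFRA had a log2 fold of 0.10 (SE 0.18), MEGF11 of 0.41 (SE 0.22) and the matrix gene MATN4 of -0.71 (SE 0.30). Schwann cell and peripheral glia genes had 7 of 10 below 0 and a median of -0.07. Of them PMP22 had -0.03 (SE 0.23) and the neurotrophin receptor NGFR -0.34 (SE 0.25).

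Genes of the node and of axon contact were split, with 6 of 13 below 0 and a median of 0.0042. The proteoglycans BCAN and VCAN, parts of the same nodal and perineuronal matrix as HAPLN2, had log2 folds of -0.30 (SE 0.09) and -0.24 (SE 0.14). Among neuron genes 4 of 14 were below 0, with SNAP25 at 0.03 (SE 0.13), the granin SCG2 at 0.30 (SE 0.13) and the glutamate transporter SLC17A6 at 0.37 (SE 0.18). Astrocyte genes had 4 of 9 below 0 and a median of 0.0035. GFAP at -0.47 (SE 0.15) and glutamine synthetase GLUL at -0.33 (SE 0.12) were among those below 0. Endothelium genes had 5 of 9 below 0, microglia and macrophage genes 4 of 8 and fibroblast and meninges genes 0 of 11, with a median of 0.32. No gene of these lists was called. When low RFI library 2 was left out, the counts below 0 were 7 of 9 for endothelium, 7 of 8 for microglia and macrophages (median -0.23), 2 of 11 for fibroblasts and meninges, and 4 of 14 and 4 of 9 for neuron and astrocyte genes.

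The fibroblast and meninges list was summed to 438 to 1031 CPM in low RFI hypothalami and to 389 to 849.8 CPM in high RFI hypothalami. The astrocyte list was summed to 5211 to 7051 CPM in low RFI hypothalami and to 6977 to 8635 CPM in high RFI hypothalami. Neuron genes summed to 6787 to 9197 CPM in low RFI hypothalami and to 6702 to 8466 CPM in high RFI hypothalami. The choroid plexus and pineal list reached 27912 CPM in low RFI library 2, against 25.3 to 121 CPM in high RFI libraries. The part of these other cell types in the myelin gene differences was not tested.

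**Figure D5:**
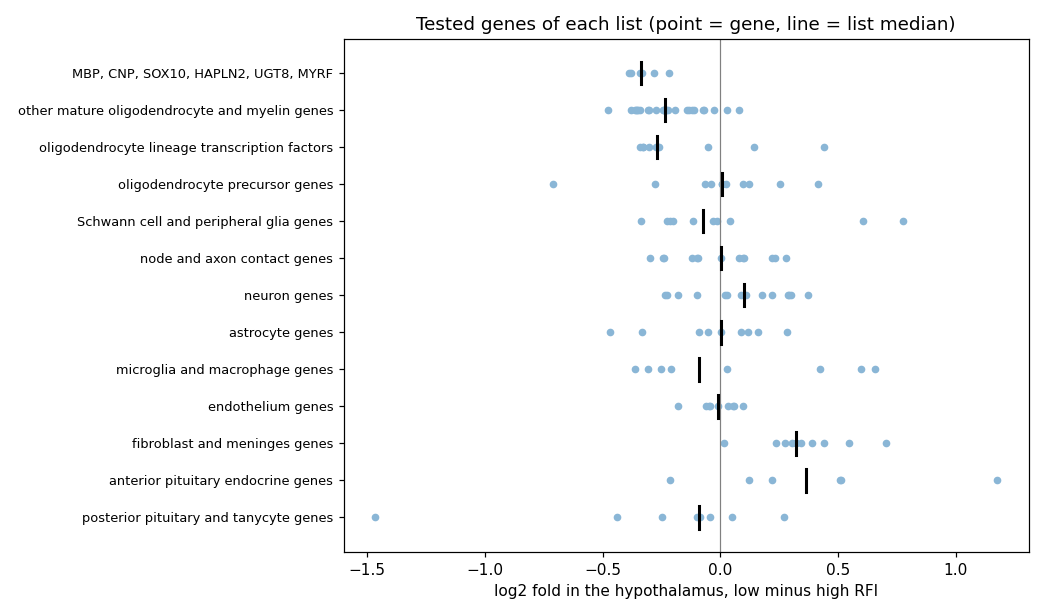
Log2 fold in the hypothalamus, low minus high RFI, of every tested gene of 13 lists (points) with the list median (line). The 6 genes lie between -0.39 and -0.22, and mature myelin genes have a median of -0.24; choroid plexus genes and markers of single libraries are not drawn.

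In the pituitary, all 6 log2 folds were above 0 in edgeR's fit, low minus high RFI, and their direction depended on 1 library and on the method. With all 10 libraries kept, limma-voom gave all 6 folds below 0, with a median of -0.36. In edgeR's fit the folds were 0.33 for MBP (SE 0.99), 0.55 for CNP (SE 1.09), 0.44 for UGT8 (SE 0.71), 0.58 for HAPLN2 (SE 0.94), 0.53 for SOX10 (SE 0.85) and 0.88 for MYRF (SE 0.88). Adjusted p in edgeR's test was 0.999 for each. No gene of 15786 tested passed (0%), 296 genes (1.88%) had an unadjusted p under 0.05, none of them one of the 6, and DESeq2 called 0. None of the 6 had groups that did not overlap, as 0.266% of all genes did. A log2 fold above 0 was found for 6 of 6 genes and for 55.5% of all genes, with medians of 0.54 and 0.02. The 95% interval ran from -1.96 to 2.62 for MBP and from -1.18 to 2.07 for UGT8.

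Low RFI library 1 held 78.2% of the summed CPM of the 6 genes in its group, and high RFI library 1 held 48.0% in its own. MBP made up most of the sum, at 12505.6 of 15655.5 CPM in low RFI library 1, so these shares mainly describe MBP. For SOX10, low RFI library 2 stood close to library 1, at 101 against 124 CPM. Without low RFI library 1, all 6 folds were below 0 and their median was -1.14, with MBP at -1.57, CNP at -1.89 and SOX10 at -0.12. Without high RFI library 1 all were above 0 and the median was 1.05. Without the 3 libraries highest in CNP the median was -0.27, with 5 of 6 below 0. The claudin-11 row had a log2 fold of -0.48 (SE 0.55, edgeR adjusted p = 0.999), with 216, 44.7, 53.9, 37.8 and 67.4 CPM in low RFI pituitaries, against 234, 130.4, 69.9, 53.4 and 108 CPM in high RFI pituitaries.

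The wider lists showed the same dependence. Of 27 mature oligodendrocyte and myelin genes, 21 had a log2 fold above 0 with all libraries and 4 without low RFI library 1, and 0 were called. DOCK10 had 0.55 (SE 0.30) and the choline transporter gene SLC44A1 0.14 (SE 0.14). Lineage transcription factors had 5 of 10 above 0 with all libraries and 2 without low RFI library 1. Of this list TCF7L2 was at 1.46 (SE 0.70) and NFIX at -0.34 (SE 0.21) with all libraries. Without low RFI library 1, TCF7L2 was at 0.0014. Precursor genes had 8 of 12 above 0 with all libraries and 3 without low RFI library 1. The sialidase NEU4 was at 1.72 (SE 0.94) and MATN4 at -0.57 (SE 0.36) with all libraries. When low RFI library 1 was left out, NEU4 was at 0.76 and MATN4 at -0.33.

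Schwann cell and peripheral glia genes had 6 of 11 above 0 in the pituitary, with ERBB3 at 0.64 (SE 0.50), PMP22 at -0.42 (SE 0.68) and GFRA3 at 2.13 (SE 1.17). GFRA3, a receptor of sensory neurons and their glia, was at 61.9 CPM in low RFI library 2 and at 0.551 to 5.78 CPM in the other 9 pituitary libraries, and its log2 fold was -0.57 without that library. Neuron genes had 13 of 14 above 0 with all libraries and 4 without low RFI library 1. Astrocyte genes had 4 of 9 above 0, posterior pituitary and tanycyte genes 2 of 8, and fibroblast and meninges genes 0 of 11, with none called. When low RFI library 1 was left out, these counts were 0 of 9 (median -0.62), 0 of 8 (median -0.44) and 4 of 11 (median -0.22), and Schwann cell and peripheral glia genes had 4 of 11 above 0. The summed fibroblast and meninges level ran from 1010.0 to 7802 CPM in low RFI pituitaries and from 3758 to 15521 CPM in high RFI pituitaries, and its part in the myelin gene values was not tested.

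The difference between the tissues in the RFI fold, pituitary minus hypothalamus, was 0.58 for MBP (SE 1.06), 0.89 for CNP (SE 1.15), 0.64 for UGT8 (SE 0.76), 0.93 for HAPLN2 (SE 0.98), 0.83 for SOX10 (SE 0.89) and 1.199 for MYRF (SE 0.99). Adjusted p in edgeR's test was 1 for each, and of 16747 genes 0 passed (0%), with 392 (2.34%) at an unadjusted p under 0.05 and 2 called by DESeq2, neither among the 6. DESeq2 gave CNP and HAPLN2 no p-value for this difference, so it could not call them. Without pituitary low RFI library 1 the difference was below 0 for 5 genes, all but SOX10 at 0.19. A difference between the tissues in the RFI fold was thus not shown for any of the 6 genes.

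The 6 genes varied together from library to library. Over the 10 hypothalamus libraries, the 15 pairwise correlations of log2 CPM ran from 0.65 to 0.95 with a median of 0.89, lowest for MYRF with MBP. Without low RFI library 2 they ran from 0.27 to 0.95 with a median of 0.62 over 9 libraries. Over the 10 pituitary libraries they ran from 0.50 to 0.96 with a median of 0.91. Without the 3 libraries highest in CNP they ran from -0.75 to 0.93 with a median of 0.67 over 7 libraries, lowest for MYRF with UGT8. These libraries share depth and dissection, and the correlations are given as a description.

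Among 9459 hypothalamus genes of at least 5 CPM, the pattern most like the mean of the 6 genes was that of MAPK8IP1, a scaffold of the JNK pathway, with Pearson's r of 0.99 and Spearman's rho of 1. Others among the 8 most alike were the septin SEPT5 (r 0.99, rho 0.99), PPP2R2B and BCAS1 (r 0.98 each), and the sulfatide enzyme GAL3ST1 and the kinase PTK2 (r 0.97 each). The least alike were SCG3 (r -0.96), PTPN20 (r -0.95), FAM20C (r -0.95) and LZTFL1 (r -0.95). Without low RFI library 2, r was -0.88 for SCG3, -0.86 for FAM20C and -0.83 for LZTFL1. PTPN20 then fell under 5 CPM and had no value. Of the 8 most alike, 4 remained among the top 8 without low RFI library 2 and 3 by Spearman's rho.

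Among 10060 pituitary genes, the 8 most alike were AGK (r 0.99, rho 0.99), PLLP (r 0.99, rho 0.96), SCRG1, CNOT4, SCD, CERCAM, ACAA1 and LARP6 (r 0.97 to 0.98 for the last 6). Only 1 of these 8 remained in the top 8 without the 3 libraries highest in CNP. PMP22 had an r of -0.09 with the 6 genes over 10 pituitary libraries and of 0.82 over the 7 others, where OLIG2 had 0.17. In the hypothalamus PMP22 had an r of -0.37, and OLIG2 of 0.79, or 0.35 without low RFI library 2.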

How the data were processed

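Total RNA was extracted with TRIzol and 1 µg with an integrity number of at least 7.7 went into each library, per the labels' protocols. HISAT2 2.0.5, DESeq2 1.20.0 and GRCg6a are named in the submitters' processing notes. The authors deposited raw read counts per gene and FPKM values, and within a library these FPKM equal count over listed gene length up to a constant (largest relative deviation 5.2e-15). The counting tool and the use of strand: not given in the sources used here.

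Counts were tested in R 4.3.3 with edgeR 4.0.16 (TMM, filterByExpr, robust quasi-likelihood test, Benjamini-Hochberg over all genes tested, threshold 0.05), each tissue alone, and over 20 libraries for tissue and tissue difference. CPM use TMM over 20 libraries, and correlations use log2 CPM with a prior count of 2. Ratios to MBP were tested in Python 3.11.15 with scipy 1.17.1. Alternatives used DESeq2 1.42.0, limma 3.58.1 (voom), other scalings and filters, a replicate block and left-out libraries. Pairs of libraries within a group differed far beyond sampling noise (chi-square over degrees of freedom 7.86 to 195), so none was a repeat run of another. Each library was counted as 1 sample. Whether 2 libraries came from the same pool or birds cannot be told from this.

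The genes and lists were chosen with earlier results of these data known. The text names all 6 genes, the genes that define a list, and the 2 of smallest p in each glial list in both tissues and in the node, neuron and astrocyte lists in the hypothalamus. PMP22, PLLP in the tissue comparison and the genes called lower there were named after their values were seen. PRX was not matched, and some genes that this rule names are not reported here. The count test was tested on simulated data, with changes added to genes drawn at random. For low against high RFI it recovered 34.3% of 1.5-fold and 62.7% of 2-fold changes in the hypothalamus. In the pituitary it recovered 1.49% and 25.4%. The folds of the 6 genes in the hypothalamus were 1.17 to 1.31, so 0 calls do not show that changes of this size are absent.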

Additional observations from a re-analysis of the deposited data

Results flagged for a closer look

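Of 24 sets of 5 library values, 1 for each gene and group over both tissues, 6 held a value whose gap to its nearest neighbour exceeded Dixon's 95% critical value of 0.71 of the range, and all 6 were pituitary sets. Chance flags about 1 in 20 such groups when values are normally spread. Gaps were taken on CPM, where a high value stands out more than on log2 CPM, and gaps on log2 CPM were not tested. The genes share the same libraries, so the 6 flags are not separate results and cannot be set against that rate. Pituitary low RFI library 1 was the outlying library for MBP at 12505.6 CPM (next 1864 CPM), CNP at 2320.5 CPM (next 146 CPM), HAPLN2 at 83.3 CPM (next 10.6 CPM), UGT8 at 557 CPM (next 158 CPM) and MYRF at 65.4 CPM (next 5.42 CPM). Pituitary high RFI library 1 was the outlying library for CNP at 1107 CPM (next 284 CPM). SOX10 was not among them, since low RFI library 2 stood beside library 1 at 101 and 124 CPM. No hypothalamus value exceeded the critical value.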

How the results depend on the processing

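In the hypothalamus the 6 log2 folds stayed below 0 under every alternative run, with a median of -0.41 to -0.19 when 1 library was left out, and counts past the threshold of 0 to 0. DESeq2 gave 5 calls (965 at an unadjusted p under 0.05) there and 2 for the tissue difference. Between tissues all 6 genes stayed called under each edgeR and limma alternative. DESeq2 called 4 of 6 and gave CNP and HAPLN2 no p-value, adjusted or not. The same held for these genes in the tissue difference and for MBP, CNP and MYRF in the pituitary. Leaving out 1 library gave 11576 to 12341 calls and a median of 2.62 to 3.63.

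Pituitary RFI folds turned sign. Under limma-voom MBP was -0.75, CNP -0.53, SOX10 -0.44, HAPLN2 -0.29, UGT8 -0.068 and MYRF -0.033, and the tissue difference was -0.47 for MBP, -0.12 for CNP and -0.085 for SOX10. Without low RFI library 1 and high RFI library 4, MBP was -1.61, CNP -1.96, SOX10 -0.15, HAPLN2 -1.18, UGT8 -0.60, MYRF -0.90 and TCF7L2 -0.066 (median of the 6 genes -1.04). The tissue difference was then -1.37 for MBP, -1.61 for CNP, -0.83 for HAPLN2, -0.41 for UGT8 and -0.58 for MYRF (median -0.70). Without the 3 libraries highest in CNP, an alternative chosen after seeing the data, MBP was -0.82, CNP -0.76, HAPLN2 -0.29, UGT8 -0.055, MYRF -0.24 and TCF7L2 -0.073, and the tissue difference was -0.56 for MBP and -0.39 for CNP. The cause was not tested.

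When 1 library was left out, the pituitary median ran from -1.14 to 1.05, counts from 0 to 0, MBP from -1.57 to 0.95, CNP from -1.89 to 1.48, SOX10 from -0.12 to 0.93, HAPLN2 from -1.28 to 1.14, UGT8 from -0.65 to 0.83, MYRF from -0.99 to 1.32 and GFRA3 from -0.57 to 2.44. The tissue difference had a median of -0.78 to 1.35 and counts of 0 to 0, with MBP from -1.31 to 1.18, CNP from -1.51 to 1.81, HAPLN2 from -0.91 to 1.47, UGT8 from -0.45 to 1.01 and MYRF from -0.65 to 1.62.

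The labels give no shared source for same-numbered libraries. Low and high RFI libraries of the same number were compared within each tissue. Not every number was over 0.1 in either tissue, so the numbers were not taken as pairs. Whether hypothalamus and pituitary libraries share birds was not checked, and the main tests over 20 libraries treat all libraries as separate. Correlations of deviations ran from -0.11 to 0.14 among hypothalamus libraries, where 0 of 5 numbers matched best with their own, and from -0.08 to 0.36 among pituitary libraries, where 1 of 5 did and numbers 2, 3 and 5 had 0.36, 0.19 and 0.24. With the replicate block, pituitary folds were MBP -0.77, CNP -0.54, SOX10 -0.40, HAPLN2 -0.24, UGT8 -0.070 and MYRF -0.040 (median -0.32), and the tissue difference of MBP was -0.11. Calls with the block were 0, 0 and 0 for hypothalamus, pituitary and tissue difference, and 11674 between tissues.

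Of the 8 genes most alike in the hypothalamus, 4 remained without low RFI library 2 and 3 by Spearman's rho. In the pituitary 5 remained without low RFI library 1 and high RFI library 4, 5 by Spearman's rho and 1 without the 3 libraries. Counts were lowest for HAPLN2, SOX10 and MYRF in the pituitary, at 38, 50 and 39 in the lowest library of each.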
